A study of Mus musculus with 10 samples.

Results

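The genes described here are insulin-like growth factor 1 (Igf1), its receptor gene Igf1r, and the 6 genes Igfbp2 to Igfbp7, which encode secreted IGF binding proteins. They were taken by gene symbol from the RNA tables of brown fat cell cultures, 8 genes of 22835 in all, on 13 of 29082 transcript rows. Igf1 has 5 rows and Igfbp7 has 2. The others have 1 row each. Rows of a gene share reads, so the row with the highest mean level was used (for Igf1 the RefSeq transcript NM_001111275).

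IGF1 is a small secreted hormone that resembles insulin. It binds IGF1R, a receptor tyrosine kinase on the cell surface, which signals through IRS adaptor proteins, PI3K and AKT. The classical binding proteins hold IGF1 and IGF2 outside the cell with high affinity. They limit access to the receptor until proteases cut them, while IGFBP7 binds IGFs only weakly. Fat cells are a local source of IGF1, and IGF1 or a high dose of insulin is a standard stimulus for preadipocytes to become fat cells.

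The cultures were immortalised brown preadipocytes of newborn mouse interscapular fat. All carried CreER, a recombinase that 4-hydroxytamoxifen (4OHT) switches on, and SV40 large T antigen, introduced by retrovirus. One line has the genotype LSL-K4M;CreER. Its name denotes a lox-stop-lox cassette, so 4OHT turns on histone H3.3 with lysine 4 replaced by methionine. The other, Mll3f/f;Mll4SETf/f;CreER and here Mll3/4SET, loses floxed parts of the H3K4 methyltransferase genes Mll3 and Mll4 with 4OHT. In Mll4 the lost part is the SET domain. Mock cultures of each line are the controls. All cultures were induced at confluence with insulin (0.02 μM), T3 (1 nM), IBMX (0.5 mM), dexamethasone (2 μg/ml) and indomethacin (0.125 mM), and then fed with insulin and T3 in 10% serum. There was 1 RNA library for each line and treatment, 4 in all, staged as mature adipocytes at day 7. The 4OHT titles say day 0, against their stage label and the table headers, so the day of these 2 libraries is in doubt. The promoter that drives CreER and the number of clones behind a line are not given in the sources used here, and effects of 4OHT or CreER alone cannot be told apart from those of the alleles. The 6 ChIP and input libraries of day 4 were not analysed here.

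Reads summed over 1 row per gene ran from 15209607 to 16719658 per library, and the 8 genes held 0.143% to 0.226% of them. With 1 library per group there is no replicate error and no test across replicates. Differences are log2((4OHT RPKM + 1)/(mock RPKM + 1)), where RPKM is the read count scaled to transcript length and library size. Genes that reached 1 RPKM in the higher library count as measured, and a measured gene was called where the difference on that scale was at least 2-fold. Ratios of RPKM carry exact 95% intervals of the reads, which cover counting error only. Day 7 fat cell identity was visible in the mock libraries, where 10 adipocyte markers summed to 6761 RPKM in LSL-K4M and 7434 RPKM in Mll3/4SET. With 4OHT that sum was 1861 RPKM in LSL-K4M and 77.2 RPKM in Mll3/4SET. In bulk RNA, fewer fat cells and less RNA per fat cell cannot be told apart.

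The sequence just before the transcription start is shown for Igf1 and Igfbp4, which were lower with 4OHT in both lines, for Igf1r and Igfbp5, which were higher in both, and for Igfbp3, which differed in opposite directions. Each run is the 250 bases before the RefSeq start on the gene's own strand, 5′ to 3′, in build GRCm38.p6. The tables' build is mm9, so these positions do not transfer to it. All 8 genes matched the RefSeq promoter table. Capitals mark exact matches on either strand to 5 motifs. The TATA box was searched with the letters TATAAA. The letters GGGCGG stood for the GC box and TGANTCA for the AP-1 site. For a C/EBP-type site the letters were TTGCNNAA, and for the TEAD site they were CATTCC.
Igf1 promoter (chr10:87860861-87861110, plus strand): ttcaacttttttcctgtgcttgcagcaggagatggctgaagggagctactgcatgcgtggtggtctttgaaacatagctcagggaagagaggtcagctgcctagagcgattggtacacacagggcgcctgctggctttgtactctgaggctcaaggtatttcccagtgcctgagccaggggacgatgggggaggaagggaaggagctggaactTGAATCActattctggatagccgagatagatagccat
Igfbp4 promoter (chr11:99040994-99041243, plus strand): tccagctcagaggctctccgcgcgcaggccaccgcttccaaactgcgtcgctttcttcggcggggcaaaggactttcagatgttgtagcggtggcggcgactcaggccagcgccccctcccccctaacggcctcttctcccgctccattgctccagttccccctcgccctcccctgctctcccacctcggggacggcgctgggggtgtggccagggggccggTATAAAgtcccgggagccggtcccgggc
Igf1r promoter (chr7:67952007-67952256, plus strand): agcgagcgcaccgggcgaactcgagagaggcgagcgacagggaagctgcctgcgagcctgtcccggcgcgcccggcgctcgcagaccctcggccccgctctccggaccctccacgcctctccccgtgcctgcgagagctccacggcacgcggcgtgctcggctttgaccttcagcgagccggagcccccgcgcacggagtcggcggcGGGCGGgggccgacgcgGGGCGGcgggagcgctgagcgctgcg
Igfbp5 promoter (chr1:72874866-72875115, minus strand): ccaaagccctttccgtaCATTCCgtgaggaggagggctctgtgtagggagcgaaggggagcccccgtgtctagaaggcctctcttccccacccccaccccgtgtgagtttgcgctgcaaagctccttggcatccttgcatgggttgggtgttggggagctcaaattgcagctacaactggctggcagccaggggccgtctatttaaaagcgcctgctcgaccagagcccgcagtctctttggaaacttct
Igfbp3 promoter (chr11:7213924-7214173, minus strand): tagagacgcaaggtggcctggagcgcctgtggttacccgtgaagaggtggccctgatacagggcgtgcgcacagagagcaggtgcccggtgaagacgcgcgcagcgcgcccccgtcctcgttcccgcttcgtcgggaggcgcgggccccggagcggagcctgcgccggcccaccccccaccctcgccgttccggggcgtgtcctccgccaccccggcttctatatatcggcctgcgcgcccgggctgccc

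These windows differ in base composition. Igf1 held 52.8% G and C, near the median of 52.4% over 32851 promoters, whereas Igf1r held 77.6%, Igfbp7 74% and Igfbp3 73.2%. The TATA letters occurred in 12.4% of all promoters, and in Igfbp4 they lay 28 to 23 bases before the start. Igf1r held 2 GC boxes and Igfbp7 held 4, letters found in 32.7% of all promoters. Igf1 held 1 match to the AP-1 letters, which leave the middle base open (6.75% of promoters). It read TGAATCA, 37 to 31 bases before the start. Igfbp5 held 1 TEAD match (12.6%). No C/EBP-type match (9.56% of promoters) was present in the members' windows, and the Igfbp3 window matched none of the 5 motifs. Igfbp6 had the TATA letters on the opposite strand, 148 to 143 bases before its start. The first of 2 Igfbp2 windows held 3 GC boxes and the second an AP-1 match. No matches overlapped. These are descriptions of letters, not of binding.

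In both lines the 4OHT library had less mRNA of the ligand Igf1 and more of its receptor Igf1r than the mock library, and the binding protein genes went different ways. In LSL-K4M, 1 of the 8 genes was called lower (Igf1) and 3 were called higher (Igfbp2, Igfbp3 and Igfbp5). Of 12179 measured genes, 6.19% were called lower and 5.26% higher in that comparison. In Mll3/4SET, 2 of 8 were called lower (Igf1 and Igfbp4) and 0 higher, beside 7.41% lower and 5.18% higher of 12184 measured genes. All 8 genes were measured in each line. The members' median difference was 0.83 in LSL-K4M and -0.09 in Mll3/4SET, beside medians of all measured genes of 0.10 and 0.12. Median-ratio scaling moved the medians of all genes to -0.02 and 0.00.

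**Figure D1:**
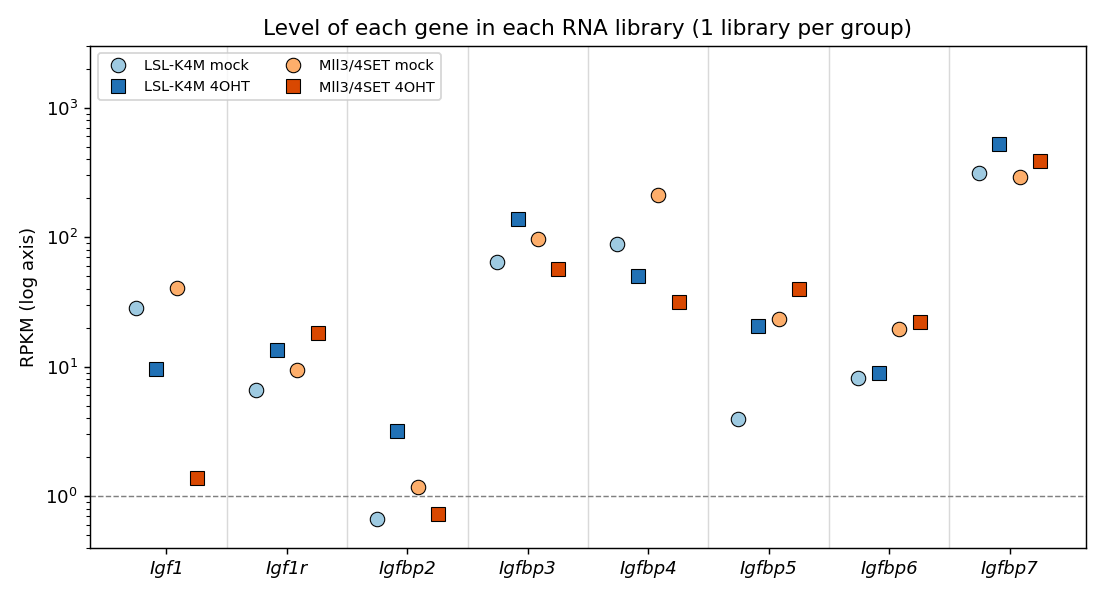
RPKM (log axis) of each gene in the 4 RNA libraries; circles are mock and squares 4OHT, 1 library each, and the dashed line is 1 RPKM. Igf1 lies lower and Igf1r higher in the 4OHT library of each line, Igfbp7 is the most abundant of the 8 in all 4 libraries, and Igfbp2 lies near 1 RPKM.

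Igf1, the ligand, had a level of 28.2 RPKM without 4OHT and 9.55 RPKM with it in the LSL-K4M line. The Mll3/4SET line had 40.5 RPKM without and 1.39 RPKM with 4OHT. Both mock libraries were above both 4OHT libraries, and the level with the Mll3/4SET deletion was the lowest of the 4. The ratio was 2.95-fold lower (2.78 to 3.13) in LSL-K4M and 29.2-fold lower (25.4 to 33.6) in Mll3/4SET. On the log2(RPKM + 1) scale these differences were -1.47 and -4.12, and 2.95% and 0.49% of measured genes had a lower value. Behind the LSL-K4M difference were 4296 mock and 1553 4OHT reads, and behind that of Mll3/4SET 6379 and 213. In rank, Igf1 stood above 89.8% of the genes at 1 RPKM or more in Mll3/4SET mock and above 4.31% of them in Mll3/4SET 4OHT. The fold was 9.89 times larger in Mll3/4SET than in LSL-K4M (8.52 to 11.5, a Wald interval of the reads). Whether the lines differ beyond the variation between cultures was not tested.

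The 5 Igf1 rows gave the same order of mock and 4OHT within each line, but they share reads and are not independent. The short row NM_184052 had 630 and 239 reads in LSL-K4M, a ratio of 2.81 (2.42 to 3.28), and 680 and 28 reads in Mll3/4SET, a ratio of 23.6 (16.2 to 35.9).

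Igf1r, which encodes the receptor for IGF1 and IGF2, had 6.57 RPKM without and 13.4 RPKM with 4OHT in the LSL-K4M line. The Mll3/4SET libraries had 9.38 and 18.3 RPKM in the same order. Both 4OHT libraries were above both mock libraries. Its ratio was 2.04-fold higher (1.92 to 2.16) in LSL-K4M and 1.95-fold higher (1.86 to 2.05) in Mll3/4SET. On the log2(RPKM + 1) scale the differences were 0.93 and 0.90, under the limit in both lines, and 93.7% and 93.1% of measured genes had a lower value. In LSL-K4M the call depended on the scale, since with a pseudocount of 0.1 the difference was 1.02, past the limit. The folds of the lines were within 1.04 times of each other (0.97 to 1.12). For 4OHT against mock, Igf1 and Igf1r thus differed in opposite directions in each line, while both were higher in the Mll3/4SET mock library than in the LSL-K4M one.

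Igfbp4, a binding protein known to inhibit IGF action until PAPP-A cleaves it, had 88.7 RPKM without and 50.4 RPKM with 4OHT in the LSL-K4M line. Mll3/4SET cells had 211.5 RPKM of it without and 31.4 RPKM with 4OHT. As for Igf1, both mock libraries were above both 4OHT libraries and the order of the 4 libraries was the same. Its ratio was 1.76-fold lower (1.67 to 1.85) in LSL-K4M, under the limit at -0.80, and 6.73-fold lower (6.36 to 7.12) in Mll3/4SET, at -2.71. The fold was 3.82 times larger in Mll3/4SET (3.55 to 4.12).

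Igfbp3, the main carrier of IGFs in blood together with the acid-labile subunit, had 64.8 RPKM without and 138.1 RPKM with 4OHT in the LSL-K4M line. Mll3/4SET cells had 97.1 RPKM of it without and 57.2 RPKM with 4OHT. The highest and the lowest of the 4 values were thus both in 4OHT libraries. It was 2.13-fold higher (2.05 to 2.22) in LSL-K4M and 1.70-fold lower (1.62 to 1.78) in Mll3/4SET, 1.08 and -0.75 on the log2(RPKM + 1) scale. The call in LSL-K4M lies close to the limit, at 0.94 under median-ratio scaling and 0.98 under upper-quartile scaling. The direction was opposite in the lines under the 4 settings that could change its value, namely both other pseudocounts and both scalings.

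Igfbp5, a binding protein that also attaches to extracellular matrix, had 3.96 RPKM without and 20.5 RPKM with 4OHT in the LSL-K4M line. The Mll3/4SET values were 23.5 and 39.5 RPKM. The LSL-K4M mock library stood apart from the other three. The ratio was 5.18-fold higher (4.71 to 5.71) in LSL-K4M and 1.68-fold higher (1.61 to 1.76) in Mll3/4SET, 2.12 and 0.73 on the log2(RPKM + 1) scale. In LSL-K4M, 99.8% of measured genes had a lower value. The fold was 3.08 times larger in LSL-K4M (2.77 to 3.42), from a mock level that was 5.93-fold lower (5.39 to 6.53) than in Mll3/4SET.

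Igfbp7, the low-affinity member of the group, was the most abundant of the 8 genes in every library. LSL-K4M cells had 313.6 RPKM of it without and 524.0 RPKM with 4OHT. The Mll3/4SET values were 290.9 and 386.0 RPKM, and its rank among all genes lay between 36 and 73. It was 1.67-fold (1.62 to 1.72) and 1.33-fold (1.29 to 1.37) higher with 4OHT, 0.74 and 0.41 on the log2(RPKM + 1) scale and under the limit in both lines.

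Igfbp6, which prefers IGF2 over IGF1, followed the line and not the treatment. The LSL-K4M libraries had 8.16 RPKM without and 8.87 RPKM with 4OHT, and the Mll3/4SET libraries 19.7 and 22.2 RPKM. The ratio was 1.09 (0.91 to 1.30) in LSL-K4M and 1.13 (1.01 to 1.27) in Mll3/4SET. In LSL-K4M the difference of 0.11 on the log2(RPKM + 1) scale became -0.02 under median-ratio scaling, so no direction is given for it.

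Igfbp2, whose protein carries an integrin-binding RGD motif, was scarce. It had 19 and 98 reads in LSL-K4M (0.66 and 3.21 RPKM) and 35 and 21 reads in Mll3/4SET (1.18 and 0.73 RPKM). Its level was highest in LSL-K4M 4OHT. The ratio was 4.84-fold higher (2.94 to 8.37) in LSL-K4M and 1.62-fold lower (0.92 to 2.93) in Mll3/4SET, where the interval includes 1. Igfbp2 and Igfbp5 are next to each other among coding genes on mouse chromosome 1 in the RefSeq list. In LSL-K4M both were higher with 4OHT, Igfbp2 4.84-fold and Igfbp5 5.18-fold. In Mll3/4SET Igfbp5 was higher with 4OHT, and the few Igfbp2 reads do not settle a direction.

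**Figure D2:**
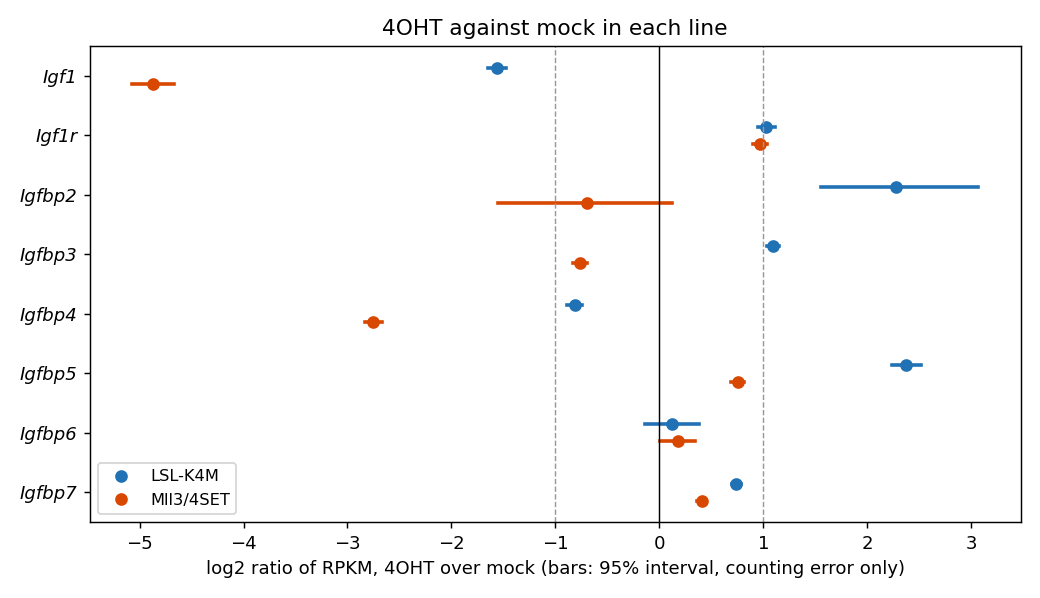
Log2 ratio of RPKM, 4OHT over mock, for each gene in LSL-K4M (blue) and Mll3/4SET (orange); bars are 95% intervals that cover counting error only, and dashed lines mark a ratio of 2. Igf1 and Igfbp4 lie left of 0 in both lines, Igf1r, Igfbp5 and Igfbp7 right of 0 in both, and Igfbp3 on opposite sides.

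Set against each other per transcript length, the binding protein genes differed in how much each contributed. Of the summed RPKM of Igfbp2 to Igfbp7, Igfbp7 made up 65.3% without and 70.3% with 4OHT in the LSL-K4M line. In the Mll3/4SET line it made up 45.2% without and 71.9% with 4OHT. The share of Igfbp4 went from 18.5% in mock to 6.77% for the LSL-K4M line, and from 32.9% to 5.85% for the Mll3/4SET line. Igfbp3 held between 10.6% and 18.5%, Igfbp5 between 0.83% and 7.36%, Igfbp6 between 1.19% and 4.14% and Igfbp2 under 0.5% in the 4 libraries.

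The summed RPKM of the 6 binding protein genes was 479.9 without and 745.1 with 4OHT for LSL-K4M cells, and 643.9 and 537.1 for Mll3/4SET cells. The 4OHT sum was 1.55 times the mock sum for LSL-K4M and 0.83 times for Mll3/4SET. Most or much of each sum is the weakly binding Igfbp7. Leaving it out, the sum was 166.3 RPKM in mock and 221.1 RPKM with 4OHT for LSL-K4M. For Mll3/4SET it was 353.0 RPKM in mock and 151.1 RPKM with 4OHT. Per RPKM of Igf1, there were 17.0 RPKM of binding protein mRNA, Igfbp7 included, in LSL-K4M mock and 15.9 in Mll3/4SET mock. With 4OHT these values were 78.0 and 386.4. Counting Igf2, the fetal ligand, with Igf1 turned that order around. Per RPKM of both ligands there were 9.31 RPKM of binding protein mRNA without and 2.76 RPKM with 4OHT for LSL-K4M cells, and 7.22 and 1.41 RPKM for Mll3/4SET cells. These are mRNA levels, and secreted protein was not measured.

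**Figure D3:**
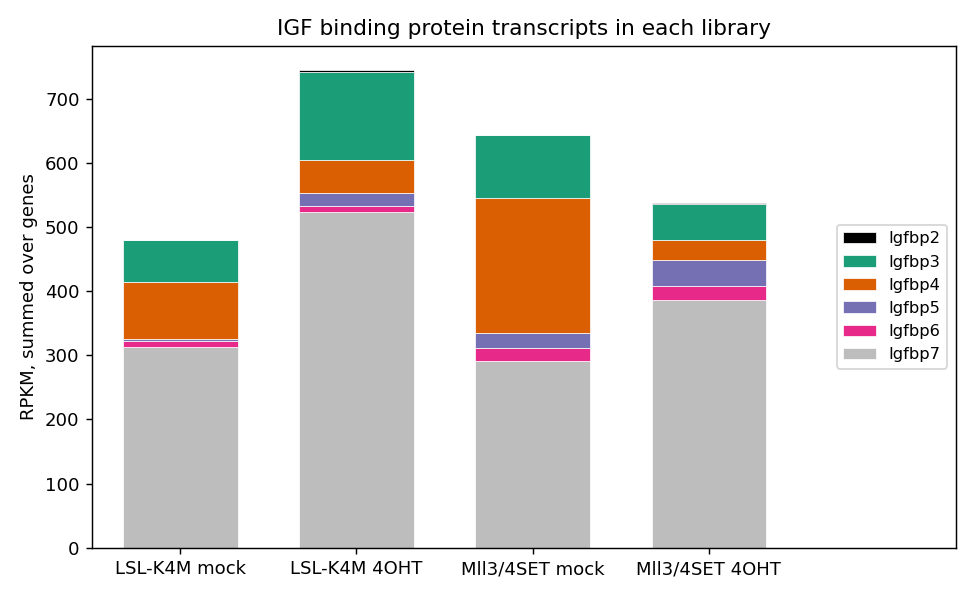
Stacked bars of the RPKM of Igfbp2 to Igfbp7 in each of the 4 RNA libraries, 1 library per bar. Igfbp7 is the largest block in each bar, and the Igfbp4 block, 211.5 RPKM in Mll3/4SET mock, is the one that differs most between mock and 4OHT of that line.

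The untreated lines already differed. Between the mock libraries, 3 of 8 genes were called higher in Mll3/4SET than in LSL-K4M (Igfbp4, Igfbp5 and Igfbp6) and 0 lower, beside 1.82% higher and 3.18% lower of 12027 measured genes. Igfbp5 was 5.93-fold higher, Igfbp6 2.41-fold (2.06 to 2.83) and Igfbp4 2.38-fold higher (2.30 to 2.47). Under the limit, Igf1 was 1.44-fold higher in the Mll3/4SET mock library, Igf1r 1.43-fold (1.34 to 1.52) and Igfbp3 1.5-fold. Between the 4OHT libraries, 3 of 8 were called lower in Mll3/4SET (Igf1, Igfbp2 and Igfbp3) and 1 higher (Igfbp6), beside 3.92% lower and 1.73% higher of 12079 measured genes. Igf1 was 6.87-fold lower (5.95 to 7.96), Igfbp2 4.4-fold lower (2.72 to 7.42), Igfbp3 2.42-fold lower (2.32 to 2.52) and Igfbp6 2.51-fold higher (2.17 to 2.91). These comparisons share libraries with those of 4OHT against mock, and in them the line and the treatment effect cannot be told apart.

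Ordered by level, nearly all neighbouring libraries of a gene were separated by more than counting error. The exceptions were LSL-K4M mock and 4OHT for Igfbp6, and for Igfbp2 the 3 lowest libraries, whose intervals of the ratio between neighbours included 1. Over its 4 libraries Igf1 had the widest range of the 8 genes, 29.2-fold, followed by Igfbp5 with 9.99-fold and Igfbp4 with 6.73-fold. Igfbp7 had the narrowest, 1.80-fold.

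The genes whose profile over the 4 libraries was most like each member were sought among 5324 genes with a mean of 10 RPKM or more. The measure was the root mean square difference of log2(RPKM + 1) after centring each gene on its own mean. Closest to Igf1 were Lcn2 and Apcdd1 (0.09 each) and the complement gene C4b (0.18). Lcn2, which encodes the secreted iron-siderophore carrier lipocalin 2, had 174.8 RPKM without and 74.4 RPKM with 4OHT in LSL-K4M cells, against 280.9 and 14.9 RPKM for Mll3/4SET. Closest to Igfbp4 were Slc5a3, Col6a2 and Cp (0.19 to 0.25). Nsg1, Mex3d and Mpzl1 were closest to Igf1r (0.03 to 0.04), and Gtf3c1, Rab9 and Nfkb2 to Igfbp7 (0.02 to 0.03).

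With the pseudocount of 1 RPKM, Igfbp2 and Igfbp3 shared Ism1 and Podn among their 3 nearest genes (0.06 and 0.09 for Igfbp2, 0.16 and 0.14 for Igfbp3). Dkk3 (0.12) and Prss23 (0.12) completed those sets. Among the 8 members, Igfbp2 and Igfbp3 were the closest pair at this pseudocount, at 0.18. Igfbp2 is scarce, and with a pseudocount of 0.001 that pair stood at 0.44, beside 0.43 for Igfbp3 and Igfbp7. Igfbp2 then lay 0.33 from Ism1 and 0.41 from Podn. The nearest genes of Igfbp3 were then Prss23, Podn and S1pr3 (0.12 to 0.17), without Ism1. Igf1 and Igfbp5 were the farthest pair with either pseudocount, at 2.45 and 2.82. Nearest to Igfbp6 were Nop58, Rpl29 and Nop14 (0.07 to 0.08), of which Rpl29 has near-identical copies in the genome. With the pseudocount of 1 RPKM, Igfbp5 had no near match, its closest genes being Meg3, Sema3c and Vcan (0.35 to 0.36). With 0.001 the nearest gene to Igfbp5 was Sema3c at 0.35, and Igfbp2 was much alike, with its nearest gene at 0.33. With 4 libraries this likeness is a description only. With a pseudocount of 0.001 the nearest genes changed in part, and those of Igf1 became C4b, Prkar2b and Apcdd1 (0.09 to 0.19), without Lcn2.

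Of 57 further genes of the pathway in the tables, 50 were measured in the LSL-K4M comparison and 48 in that of Mll3/4SET. In LSL-K4M 7 were called lower and 2 higher, with a median of -0.06. In Mll3/4SET 8 were lower and 2 higher, with a median of 0.06. Over all measured genes, 6.19% were called lower and 5.26% higher in LSL-K4M, with a median of 0.10. In Mll3/4SET these values were 7.41%, 5.18% and 0.12. Among the other ligands and receptors, Igf2 had 23.4 RPKM without and 260.8 RPKM with 4OHT in LSL-K4M cells, against 48.6 and 379.8 RPKM in Mll3/4SET cells. It was 11.2-fold (10.6 to 11.7) and 7.81-fold higher (7.56 to 8.08), opposite in direction to Igf1. Igf2r, which clears IGF2 into lysosomes, was 1.98-fold (1.91 to 2.06) and 1.87-fold (1.80 to 1.93) higher, under the limit. Insr, the insulin receptor gene, was 2.48-fold (2.34 to 2.63) and 2.62-fold (2.47 to 2.78) lower. In each line, then, the 4OHT library had more Igf1r and less Insr than the mock library. Of the other binding protein genes, Igfals, the acid-labile subunit gene, had 83 and 16 reads in LSL-K4M and 30 reads and 1 read in Mll3/4SET. Igfbp1 and Igfbpl1 had 0 reads in all 4 libraries.

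Genes of binding protein cleavage and its inhibition differed in both directions. Of 6 measured genes, 2 were lower and 1 was higher in LSL-K4M (median -0.51), and 3 were lower and 1 higher in Mll3/4SET (median -0.90). For all measured genes, 6.19% were called lower and 5.26% higher in LSL-K4M, with a median of 0.10. The Mll3/4SET shares were 7.41% and 5.18%, with a median of 0.12. Pappa, the protease that cuts IGFBP4, had 4.82 RPKM without and 14.7 RPKM with 4OHT in LSL-K4M cells, 3.06-fold higher (2.86 to 3.27). For Mll3/4SET cells the Pappa values were 9.63 and 21.6 RPKM, 2.25-fold higher (2.14 to 2.36), a difference of 1.09 that was under the limit with median-ratio scaling. Stc1, a PAPP-A inhibitor, had 3.60 and 2.40 RPKM in the LSL-K4M libraries. In Mll3/4SET cells it had 9.68 and 0.62 RPKM, 15.7-fold lower (11.8 to 21.4). Stc2, the related inhibitor, was at 5.53 and 3.37 RPKM and at 9.67 and 12.5 RPKM. Htra1, a secreted serine protease, was 3.09-fold (2.78 to 3.44) and 4.72-fold lower (4.27 to 5.24), and its relative Htra3 was 2.95-fold (2.63 to 3.31) and 11.4-fold lower (8.81 to 15.0). Adam12 was under the limit in both lines.

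Growth hormone signalling drives Igf1 through JAK2 and STAT5 in many tissues. Of its 8 genes, 1 was called lower in LSL-K4M (median -0.36) and 2 in Mll3/4SET (median -0.43), and 0 were higher. Beside them, 6.19% of all measured genes were called lower in LSL-K4M (median 0.10) and 7.41% in Mll3/4SET (median 0.12). Ghr, the growth hormone receptor gene, had 79.7 and 55.3 RPKM in the LSL-K4M libraries. In Mll3/4SET cells it had 120.6 and 39.6 RPKM, 3.05-fold lower (2.84 to 3.27). Stat5a was 2.84-fold lower (2.59 to 3.12) in LSL-K4M, and its Mll3/4SET values were 11.5 and 6.63 RPKM. Cish, a STAT5 target that restrains cytokine signalling, had 17.6 and 9.57 RPKM in the LSL-K4M libraries and was 2.97-fold lower (2.55 to 3.48) in Mll3/4SET.

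Downstream of the receptors most genes stayed under the limit. Of the receptor adaptors, Irs3 was called lower in LSL-K4M (106 and 11 reads) and Irs2 in Mll3/4SET, 3.01-fold (2.68 to 3.39), of 9 and 8 measured genes. In Mll3/4SET Irs3 was also lower, 9.54-fold (3.82 to 30.7) on 49 and 5 reads. At 0.94 RPKM in mock it did not count as measured there. Irs2 in LSL-K4M was 1.73-fold lower (1.54 to 1.95), under the limit. Of 20 PI3K, AKT and FOXO genes, Foxo1, a transcription factor that AKT restrains, was the 1 called, 2.30-fold (2.10 to 2.51) and 2.28-fold lower (2.09 to 2.50). The list medians were 0.18 and 0.16, beside 0.10 and 0.12 for all measured genes. Beside the calls of these 2 lists, 6.19% and 7.41% of all measured genes were called lower in LSL-K4M and Mll3/4SET. The 3 genes of IGF2 mRNA binding proteins were all under the limit, between 1.42-fold and 1.62-fold higher. Igf2bp2 was the most abundant of them, with 18.8 and 27.1 RPKM in the LSL-K4M libraries and 18.5 and 28.1 RPKM for Mll3/4SET. Igf2bp3 ranged from 6.92 to 10.9 RPKM and Igf2bp1 from 2.86 to 5.64 RPKM over the 4 libraries.

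**Figure D4:**
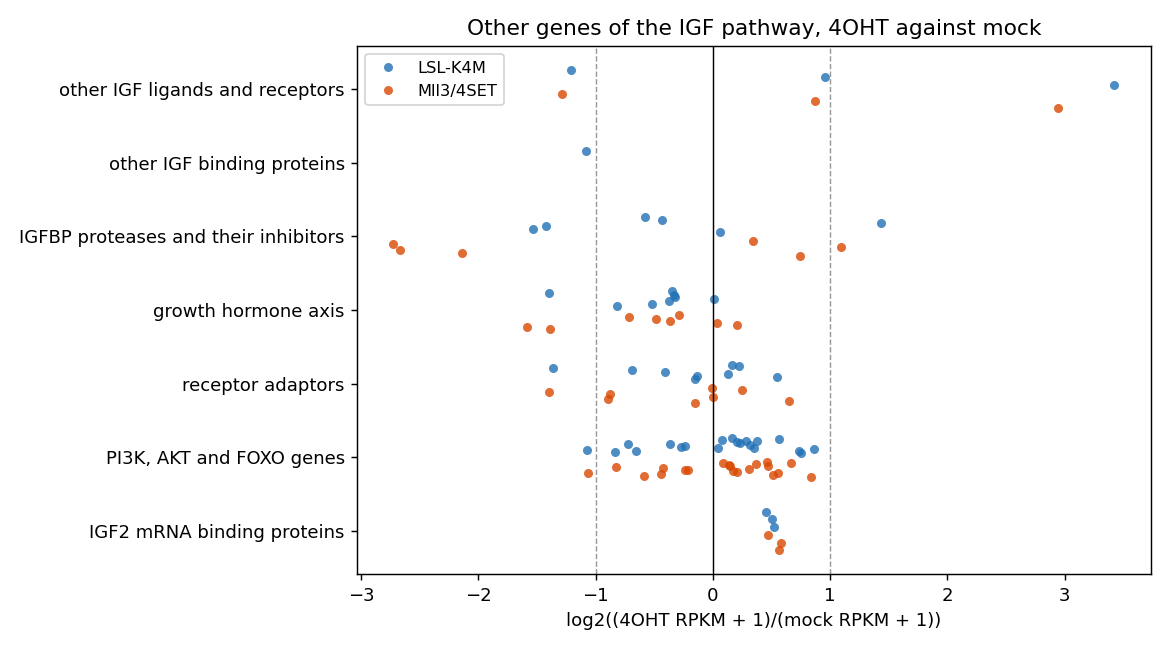
Log2((4OHT RPKM + 1)/(mock RPKM + 1)) of measured pathway genes outside the 8 members, grouped by role, in LSL-K4M (blue) and Mll3/4SET (orange); each point is 1 gene and dashed lines mark the limit of 2-fold. Igf2 is the point farthest right in each line, at 3.43 and 2.94, while the 20 PI3K, AKT and FOXO genes lie around 0 with Foxo1 just past the lower limit.

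Marker sums differed between the same libraries, and Igf1 and Igfbp4 had the order of the adipocyte sum. All 10 adipocyte markers were called lower in both lines. Their sum, like Igf1 and Igfbp4, was highest in Mll3/4SET mock and lowest in Mll3/4SET 4OHT. Between the mock libraries the single markers were split. Fabp4, Lpl, Plin1 and Cd36 were higher in Mll3/4SET mock, whereas Pparg, Adipoq, Lipe, Cidec and Retn were higher in LSL-K4M mock. Cebpa was nearly equal, at 159.1 RPKM in LSL-K4M mock and 158.3 RPKM in Mll3/4SET mock. Fabp4 had 4099 RPKM in LSL-K4M mock and 5119 RPKM in Mll3/4SET mock, and Adipoq had 482.6 and 167.1 RPKM. Contractile markers, all 8 called higher in both lines, summed to 634.9 RPKM without and 2798 RPKM with 4OHT for LSL-K4M cells, and to 442.9 and 1635 RPKM for Mll3/4SET cells. Their leading genes, Acta2 and Tagln, ranged over the 4 libraries from 115.4 to 1147 RPKM and from 67.9 to 483.6 RPKM. Of the adipocyte markers the fatty acid carrier gene Fabp4 ranged from 24.3 to 5119 RPKM and the lipase gene Lpl from 34.3 to 1022 RPKM. Progenitor markers summed to 440.9 and 410.3 RPKM for LSL-K4M cells and to 466.0 and 253.5 RPKM for Mll3/4SET cells. Ly6a and Pdgfra were called lower in Mll3/4SET, and Dlk1 was called higher in LSL-K4M, at 10.3 and 26.2 RPKM. The median difference of this list was 0.27 in LSL-K4M and -0.56 in Mll3/4SET. The part of these cell states in the values above was not tested.

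Macrophages and endothelial cells are other known sources of IGF1 or IGF binding proteins. Of 11 macrophage and leukocyte markers, 2 to 4 reached 1 RPKM per library, and the list summed to 9.60 and 7.22 RPKM for LSL-K4M cells and 8.53 and 4.13 RPKM for Mll3/4SET cells. Ptprc and Emr1 had at most 1 read per library, Itgam at most 2 and Csf1r 16 to 42. Cd14, a leading gene, ranged from 1.73 to 3.05 RPKM. Mpeg1, the other, had 430 reads without and 90 with 4OHT in LSL-K4M cells, 5.10-fold lower (4.05 to 6.47). In Mll3/4SET cells it had 320 and 23 reads, 13.5-fold lower (8.87 to 21.7). It was the 1 marker of this list called in either line and was lower where Igf1 was lower, and its part in the Igf1 values was not tested. Of 10 endothelial markers, 3 reached 1 RPKM in each library, with sums from 6.24 to 10.2 RPKM, and Cdh5 and Tie1 had 0 reads in all 4. The leading genes Tek and Egfl7 reached at most 5.44 and 3.17 RPKM. Of 10 skeletal muscle markers 1 reached 1 RPKM, Acta1, at up to 10.9 RPKM, with Des under it at 0.86 RPKM or less. Acta1 was called higher with 4OHT in both lines, 3.28-fold (2.63 to 4.12) in LSL-K4M and 3.23-fold (2.31 to 4.59) in Mll3/4SET. The sums of the muscle markers ran from 2.56 to 12.2 RPKM, and Myod1, Myf5, Myog and Pax7 were at 0.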

How the data were processed

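RNA-seq of 4 libraries was used. Per the labels' protocols, RNA was taken with Trizol and mRNA selected on magnetic beads; the submitters' processing notes name mm9 and SICER, and the aligner, counter and use of strand are not given in the sources used here. Each line has its own table. Per the file headers, the authors deposited read counts and RPKM per RefSeq transcript, their ratio of mock to 4OHT, and a column of another kind, headed as expressed; the last 2 were not used. The counts were whole in 100% of rows, and the RPKM were proportional to them, so levels were also set across tables. No column was left unassigned (0).

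From these values, log2 differences used a pseudocount of 1 RPKM and a minimum of 1 RPKM in the higher library, and intervals were exact conditional binomial (95%, SciPy 1.17.1, Python 3.11.15). The 2-fold rule and the intervals were tried on simulated counts that held counting error only, with planted changes larger than 2-fold. That trial covers neither variation between cultures nor changes near the limit. Other settings were pseudocounts of 0.1 and 0.001, no filter or 5 RPKM, median-ratio and upper-quartile scaling, and other transcript rows. Named genes are the members, list genes called in either line, members of short lists at 1 RPKM, the top 2 of a marker list, and the 3 nearest profiles. The members and lists were chosen with earlier results of these data known. Promoter sequences are RefSeq's (GRCm38.p6).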

Additional observations from a re-analysis of the deposited data

Results flagged for a closer look

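Igfbp3 and Igfbp2 differed in opposite directions with 4OHT in the lines. The log2 difference of Igfbp3 in LSL-K4M minus that in Mll3/4SET was 1.83 (1.08 against -0.75), on 3023 to 7755 reads per library. That of Igfbp2 was 1.68 (1.34 against -0.34), on 19 to 98 reads per library, and in Mll3/4SET its counting interval includes no difference. The Igfbp2 value depends on the pseudocount, being 2.97 (2.27 against -0.70) with 0.001, while that of Igfbp3 is then 1.86. With 1 library per group neither contrast between the lines was tested.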

How the results depend on the processing

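With 1 library per group no replicate could be left out, and counting error is the only error given. No paired analysis was possible because each group has 1 library and the labels give no replicate numbers. Of 252 log2 differences of single members under alternatives, 0 of called genes reversed and 33 moved by more than their counting interval. None of the 64 counts of members called lower or higher moved by over 1.5 times. Single calls did change in LSL-K4M, where Igfbp3 lost its call under both scalings and Igf1r gained one with pseudocounts of 0.1 and 0.001 (1.02 and 1.03). Igfbp2, under 5 RPKM in all libraries, was not measured with the stricter filter.

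The share of Igfbp7 among binding protein transcripts was 48.3% without and 50.4% with 4OHT for LSL-K4M cells, and 28.0% and 48.2% for Mll3/4SET cells, when reads were not scaled to length, so that Igfbp4, at 37.5%, led in Mll3/4SET mock. With the mean over all rows of a gene the Igfbp7 shares were 64.5%, 69.5%, 44.2% and 71.1%. Under median-ratio scaling, the cleavage genes called higher in Mll3/4SET went from 1 to 0 and the adaptors called lower from 1 to 3, with Irs1 (-0.88 to -1.001) and Grb14 (-0.89 to -1.01) passing the limit. The smaller pseudocount for profile likeness was chosen after seeing the data.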

Other observations

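The Igf1 rows did not give the same difference between the untreated lines. The long row NM_001111275 had 4296 reads in LSL-K4M mock and 6379 in Mll3/4SET mock, 1.44-fold higher in the latter. The short row NM_184052 had 630 and 680 reads, a ratio of 1.05 (0.94 to 1.17). The same rows also gave different folds with 4OHT in Mll3/4SET, 29.2 for the long row and 23.6 for the short one, with counting intervals that overlap. Which part of the gene the remaining reads lie in was not tested, since the tables give no reads by exon.

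The adaptor genes Grb10 and Grb14, whose proteins bind the insulin and IGF1 receptors, differed in opposite directions in Mll3/4SET. Grb10 had 62.8 RPKM without and 99.2 RPKM with 4OHT there, and Grb14 had 8.58 and 4.16 RPKM. The LSL-K4M libraries had 41.8 and 61.6 RPKM of Grb10 and 11.2 and 10.0 RPKM of Grb14. As deposited, all of these differences were under the 2-fold limit of the log2(RPKM + 1) scale. With median-ratio scaling Grb14 passed it in Mll3/4SET, at -1.01. Both genes were singled out after their values were seen.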
